A study of Arabidopsis thaliana with 18 samples.

Results

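Cysteine-rich receptor-like kinases (CRKs) are plasma membrane proteins of plants with a pair of cysteine-rich DUF26 domains outside the cell, a membrane-spanning helix and a kinase domain inside. They form one of the larger families of receptor-like kinases in Arabidopsis, and many of their genes lie in tandem arrays of near copies. Many CRK genes are known to be induced by pathogens, salicylic acid, ozone and other sources of reactive oxygen, and several of the proteins act with immune receptor complexes at the cell surface, in cell death, in senescence or in abscisic acid responses.

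The set described here holds 41 CRK genes, given as AGI loci, out of 26716 genes with a probe on the arrays. Of the 41 genes, 20 form the tandem run from AT4G23130 to AT4G23320 on chromosome 4, called the cluster below, and 21 lie elsewhere, including 17 at other places on chromosome 4. The set was chosen by its signals at 0d, before the N-free treatment, where the cluster was lower in AOpro(mut)-AO than AOpro(wt)-AO shoots. The difference between the lines at 0d is therefore given as a description without a test, and so are the changes with N starvation, which use the same 0d arrays.

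Shoot RNA was measured on 18 one-colour Agilent arrays, 3 for each of 6 groups. *AO* (AT5G14760) encodes L-aspartate oxidase, an enzyme of *de novo* NAD+ synthesis. Both lines carry the *ao* null allele fin4-2 and an *AO* transgene driven by the *AO* promoter, which is intact in AOpro(wt)-AO and mutated in AOpro(mut)-AO at a site bound by NLP transcription factors, which act in nitrate responses, and each is represented by 1 transgenic line (line #1), so that the promoter mutation and other differences between these 2 lines cannot be told apart. Seedlings had 17 days of hydroponic culture after 1 day in light and 2 days in dark (0d), then 3 days in N-free medium with K2SO4 (3d[-N]), and then 24 h with 10 mM KNO3 (resupplied). Plants of the same age kept on N are not part of these arrays, so age and treatment cannot be told apart. Each replicate was a pool of shoots from separate seedlings, and in whole shoots fewer cells of a type and less RNA per cell cannot be told apart.

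Values are log2 signals relative to the 75th percentile of their array, so that 0 stands for the signal at that percentile. They are compared only within a gene, since brightness differs between probes. On this scale *AO* lay between 0.50 and 1.62 on the 9 AOpro(wt)-AO arrays and between -1.63 and -0.87 on the 9 AOpro(mut)-AO arrays, so the arrays of the lines did not overlap. The 75th percentile itself was 2221 to 3122 units of signal, and 72.6% to 76.1% of spots per array passed the well-above-background flag. The 5 shoot markers were well above background on every array, with a summed linear signal, in units of the 75th percentile, between 669.7 and 935.6. At 3d[-N] this sum was higher in AOpro(mut)-AO (788.1 to 935.6) than AOpro(wt)-AO plants (669.7 to 761.7) without overlap, and at the other stages the lines overlapped. The summed signal of 7 root markers was 6.42 to 8.14 in AOpro(wt)-AO and 4.79 to 5.45 in AOpro(mut)-AO plants at 0d, where the lines did not overlap. It overlapped at 3d[-N] (2.79 to 5.24 against 3.57 to 4.02) and after resupply (3.933 to 5.004 against 3.993 to 8.609). This sum was nearly all *PYK10*, with a mean of 2.81 at 0d in AOpro(wt)-AO, where *CASP1* was next at -5.06. By log2 difference, 5 of the 6 tested root markers were lower in AOpro(mut)-AO at 0d, and 5 were higher at both later stages. Of these only *MYB66* passed the adjusted p in limma, at 0.92 (adjusted p = 0.000177) and 0.90 (adjusted p = 0.000230), without being called. *MYB66* (AT5G14750) has the locus number next to that of *AO*, so its values are not read as a measure of root RNA. The 4 seed storage genes summed to 0.0721 to 0.657 at 0d and to at most 0.0486 later. One of them, *SESA5*, was called higher in AOpro(mut)-AO than AOpro(wt)-AO plants after resupply (log2 difference 3.91, adjusted p = 0.00170) and with resupply in AOpro(mut)-AO plants (3.75, adjusted p = 0.00551), at a mean of -5.94 with an SD of 2.08 over the 3 resupplied arrays. The part of shoot, root or seed RNA in the CRK values was not tested.

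A gene was tested when a probe was well above background on all 3 arrays of at least 1 group. All 20 cluster genes passed, and they were above background on all 18 arrays. Of the other CRK genes 17 of 21 passed, and 13 of them were above background on every array. *CRK26* passed through 1 group only (3d[-N] in AOpro(wt)-AO), *CRK31* through 4 groups, and *CRK30* and *CRK38* through 5. Just outside the limit, *CRK25* was above background on 11 arrays but never on all arrays of a group, while *CRK33* was above it on 1 array and *CRK32* and *CRK39* on none. These 4 genes have no result below. The array gave 12 of the CRK genes more than 1 tested probe, and the brightest was used. Its calls differed from those of another probe for *CRK18*, given below with *EMB1290*, whose probes also differed in size. Probe sequences were not analysed here, so how far a probe for one CRK gene also binds RNA of a near copy is not known.

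At 0d all 20 cluster genes had lower means in AOpro(mut)-AO plants, with a median log2 difference of -0.61, and for 17 of them the arrays of the lines did not overlap. Among the 17 other CRK genes, 14 had lower means, with a median of -0.72, and 10 had arrays that did not overlap; over the 13 above background on every array the median was -0.18. Over all genes tested, the median was -0.01 and 27.3% were lower without overlap, and nothing is read from these counts because this contrast chose the set. The size differed widely within the cluster. *CRK23* (AT4G23310) read -1.40, -1.74 and -1.85 on the AOpro(wt)-AO arrays and -3.99, -4.03 and -4.23 on the AOpro(mut)-AO arrays, a log2 difference of -2.42. *CRK12* (AT4G23200) read -2.14, -2.41 and -2.41 against -4.43, -4.52 and -4.42, a log2 difference of -2.14. These were the largest gaps at 0d in the cluster, given as a description only. The smallest belonged to *CRK16* (AT4G23240), with a log2 difference of -0.17, and to *CRK22* (AT4G23300), with -0.18. *CRK16* read -2.40, -2.48 and -2.45 against -2.53, -2.68 and -2.64, and *CRK22* read -0.21, -0.26 and -0.25 against -0.49, -0.39 and -0.39. Both genes were among the 17 of 20 whose arrays did not overlap. Outside the cluster, *CRK38* (AT4G04510) was well above background on every AOpro(wt)-AO array and on none of the AOpro(mut)-AO arrays at 0d, which gives a level at least 7.24-fold higher in AOpro(wt)-AO. Each such bound sets the brighter group's mean against, on each dim array, the higher of the lowest signal counted as well above background and the probe's own signal. For *CRK38* at 0d its own signal was the higher, so this bound equals the ratio of the group means.

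**Figure D1:**
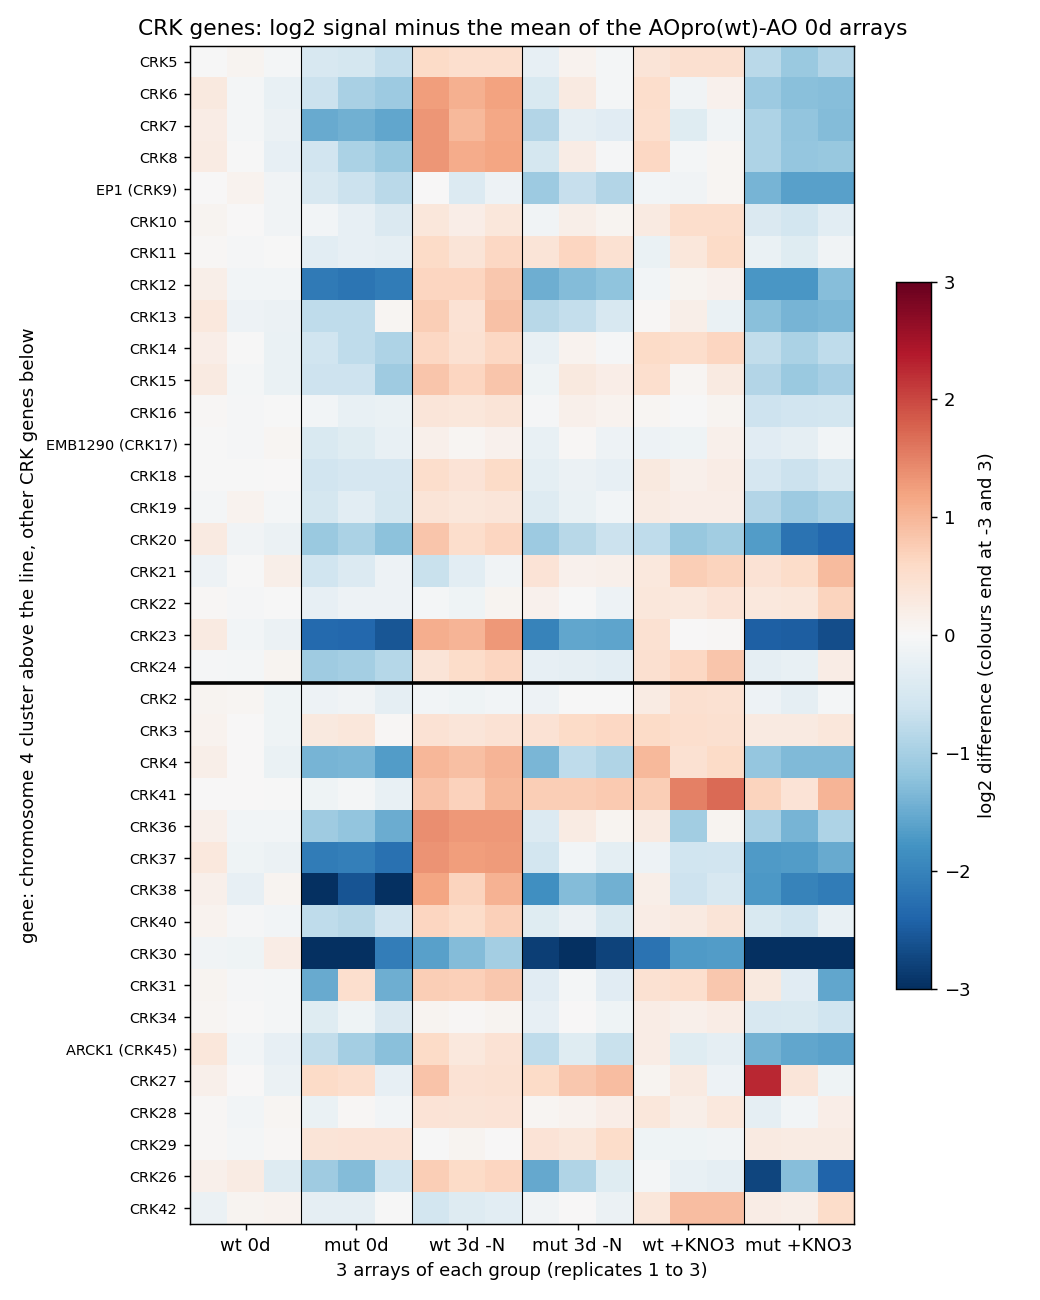
Normalised log2 signal of each tested CRK gene on each of the 18 arrays, minus the gene's mean over the 3 AOpro(wt)-AO arrays at 0d (colour scale, ends at -3 and 3). Columns are the 3 replicates of each group, rows are genes in AGI order, and the line separates the 20 cluster genes from the 17 others; the 3 blocks of AOpro(mut)-AO columns are mostly blue, and *CRK21*, *CRK22* and *CRK29* are among the rows that are not.

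After 3 days without N, 14 CRK genes were lower in AOpro(mut)-AO plants at an adjusted p of 0.05 and a log2 difference of 1 (limma, Benjamini-Hochberg over all probes), 7 in the cluster and 7 elsewhere, and none was higher. The 7 elsewhere include *CRK26*, whose call carries no weight, as given below. Of all 21060 genes tested, 7.21% were called in this comparison, 3.25% as lower and 3.96% as higher. With the adjusted p alone, 25 CRK genes were lower (25.5% of all genes) and 2 were higher (26.5% of all genes), *CRK21* in the cluster and *CRK29* outside it. *CRK23* had the largest difference. It read -0.57, -0.65 and -0.37 in AOpro(wt)-AO and -3.67, -3.23 and -3.25 in AOpro(mut)-AO plants, 7.23-fold lower (log2 difference -2.85, SE 0.15, adjusted p = 2.78e-09). *CRK12* read -1.68, -1.68 and -1.51 against -3.78, -3.63 and -3.53, 4.06-fold lower (adjusted p = 7.44e-09). For both genes the gap between the lines was as wide as at 0d or nearly so, at -2.85 against -2.42 for *CRK23* and -2.02 against -2.14 for *CRK12*.

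*CRK7* (AT4G23150), known to act in responses to extracellular reactive oxygen, read 1.50, 1.15 and 1.35 in AOpro(wt)-AO and -0.70, -0.10 and -0.16 in AOpro(mut)-AO plants at 3d[-N] (log2 difference -1.65, SE 0.20, adjusted p = 1.10e-05). *CRK20* (AT4G23280), one of the CRKs whose overexpression sets off cell death resembling the hypersensitive response, read -3.27, -3.59 and -3.46 against -5.20, -4.93 and -4.74 (log2 difference -1.52, SE 0.17, adjusted p = 6.75e-06). The lines did not overlap for either gene. The 3 remaining cluster genes called were *CRK6* with a log2 difference of -1.26, *CRK8* with -1.32 and *CRK13* with -1.36. *CRK6* is known to enhance pattern-triggered immunity when overexpressed, and *CRK13* overexpression raises salicylic acid and resistance to *Pseudomonas syringae*.

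Outside the cluster, *CRK38* read -3.22, -3.75 and -3.37 in AOpro(wt)-AO and -6.26, -5.72 and -5.86 in AOpro(mut)-AO plants, 5.66-fold lower at 3d[-N] (adjusted p = 3.46e-07). *CRK4* (AT3G45860), a cell-death-inducing CRK that also enhances pattern-triggered immunity, read 2.88, 2.78 and 2.90 against 0.51, 1.12 and 0.99, 3.95-fold lower (adjusted p = 1.50e-07). *CRK30* (AT4G11460) read -5.29, -4.95 and -4.68 against -6.49, -7.21 and -6.43 (log2 difference -1.74, SE 0.27, adjusted p = 0.000105). The lines did not overlap for any of these genes. The other 4 genes called were *CRK37* (AT4G04500), *CRK36* (AT4G04490) and *ARCK1* (AT4G11890, CRK45), with log2 differences of -1.61, -1.36 and -1.05, and *CRK26* (AT4G38830). *CRK36* encodes a kinase that binds BIK1 in immunity and interacts with ARCK1, and that pair restrains abscisic acid and osmotic stress responses. *CRK26* entered the test only through the brighter group of this comparison, and only 1 of the 3 AOpro(mut)-AO arrays was well above background, so its call carries no weight and no fold is given. With the deposited series matrix it was called neither here nor after resupply. *ARCK1* stayed under adjusted p = 0.05 but fell short of the fold threshold without replicate 1 of AOpro(mut)-AO (log2 difference -0.96) or replicate 1 of AOpro(wt)-AO (-0.98) at 3d[-N]. With normexp background correction, *CRK13*, *CRK20*, *CRK26*, *CRK30*, *CRK38* and *ARCK1* were not called. Of the 33 CRK genes above background on all arrays, a count added after seeing the data, 11 were called in this comparison and 15 after resupply.

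One day after KNO3 resupply, 18 CRK genes were lower in AOpro(mut)-AO plants and none was higher, against 6.89% of all genes called, 2.46% as lower and 4.43% as higher. The cluster held 12 of the 18, and *CRK26*, whose call carries no weight, is among the others. With the adjusted p alone, 31 CRK genes were lower (21.9% of all genes) and *CRK29*, with a log2 difference of 0.38, was higher (25.4% of all genes). *CRK23* read -1.20, -1.65 and -1.63 against -4.11, -4.14 and -4.32, 6.47-fold lower (log2 difference -2.69, SE 0.15, adjusted p = 4.57e-09). *CRK12* read -2.39, -2.23 and -2.18 against -4.07, -4.07 and -3.59, 3.12-fold lower (adjusted p = 6.15e-08). *CRK23* and *CRK12* thus had the largest differences of the cluster at this stage also.

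Both stages shared 13 of the called genes, 7 in the cluster and 6 elsewhere, and *CRK36* alone was called only at 3d[-N]. The 6 elsewhere include *CRK26*, whose calls carry no weight. The 5 genes called only after resupply were *CRK5* (AT4G23130), *EP1* (AT4G23170, CRK9), *CRK14* (AT4G23220), *CRK15* (AT4G23230) and *CRK19* (AT4G23270), all in the cluster. *EP1* read 2.39, 2.37 and 2.53 in AOpro(wt)-AO and 1.09, 0.85 and 0.84 in AOpro(mut)-AO plants (log2 difference -1.50, SE 0.12, adjusted p = 2.23e-07). *CRK14* read 1.27, 1.22 and 1.34 against -0.05, -0.25 and -0.06 (log2 difference -1.40, SE 0.11, adjusted p = 1.42e-07). *CRK5*, which has known roles in senescence and abscisic acid responses, read -0.14, -0.04 and -0.04 against -1.34, -1.63 and -1.42 (log2 difference -1.39, SE 0.09, adjusted p = 1.93e-08). Each of these genes had close replicates in both lines and a gap of over 1 on the log2 scale. *CRK15* had a log2 difference of -1.27 and *CRK19*, another cell-death-inducing CRK, of -1.18. Whether these gaps differed from those at 3d[-N] is the resupply interaction given below. Leaving out replicate 1 of the resupplied AOpro(wt)-AO arrays took *CRK7* to -0.91 and *CRK20* to -0.99, and leaving out replicate 3 of the resupplied AOpro(mut)-AO arrays took *CRK20* to -0.96, under the fold threshold with adjusted p still below 0.05.

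Outside the cluster, *CRK4* read 2.86, 2.35 and 2.46 in AOpro(wt)-AO and 0.71, 0.57 and 0.56 in AOpro(mut)-AO plants after resupply, 3.84-fold lower (adjusted p = 1.85e-07). *CRK30* was well above background on all 3 AOpro(wt)-AO arrays, with -5.87, -5.34 and -5.34, and on none of the AOpro(mut)-AO arrays, with -7.75, -7.68 and -7.63. Its level was at least 3.95-fold higher in AOpro(wt)-AO plants (adjusted p = 1.47e-05). *CRK26* was also called, but it was well above background on 2 AOpro(wt)-AO arrays and on none of AOpro(mut)-AO. Its call carries no weight and no fold is given. The remaining genes called were *CRK37*, *CRK38* and *ARCK1*, with log2 differences of -1.19, -1.64 and -1.39. *CRK36* had a log2 difference of -0.87, and its resupplied AOpro(wt)-AO arrays spread from -2.85 to -1.53. With normexp background correction, *CRK13*, *CRK20*, *CRK26*, *CRK30*, *CRK37* and *CRK38* were not called.

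**Figure D2:**
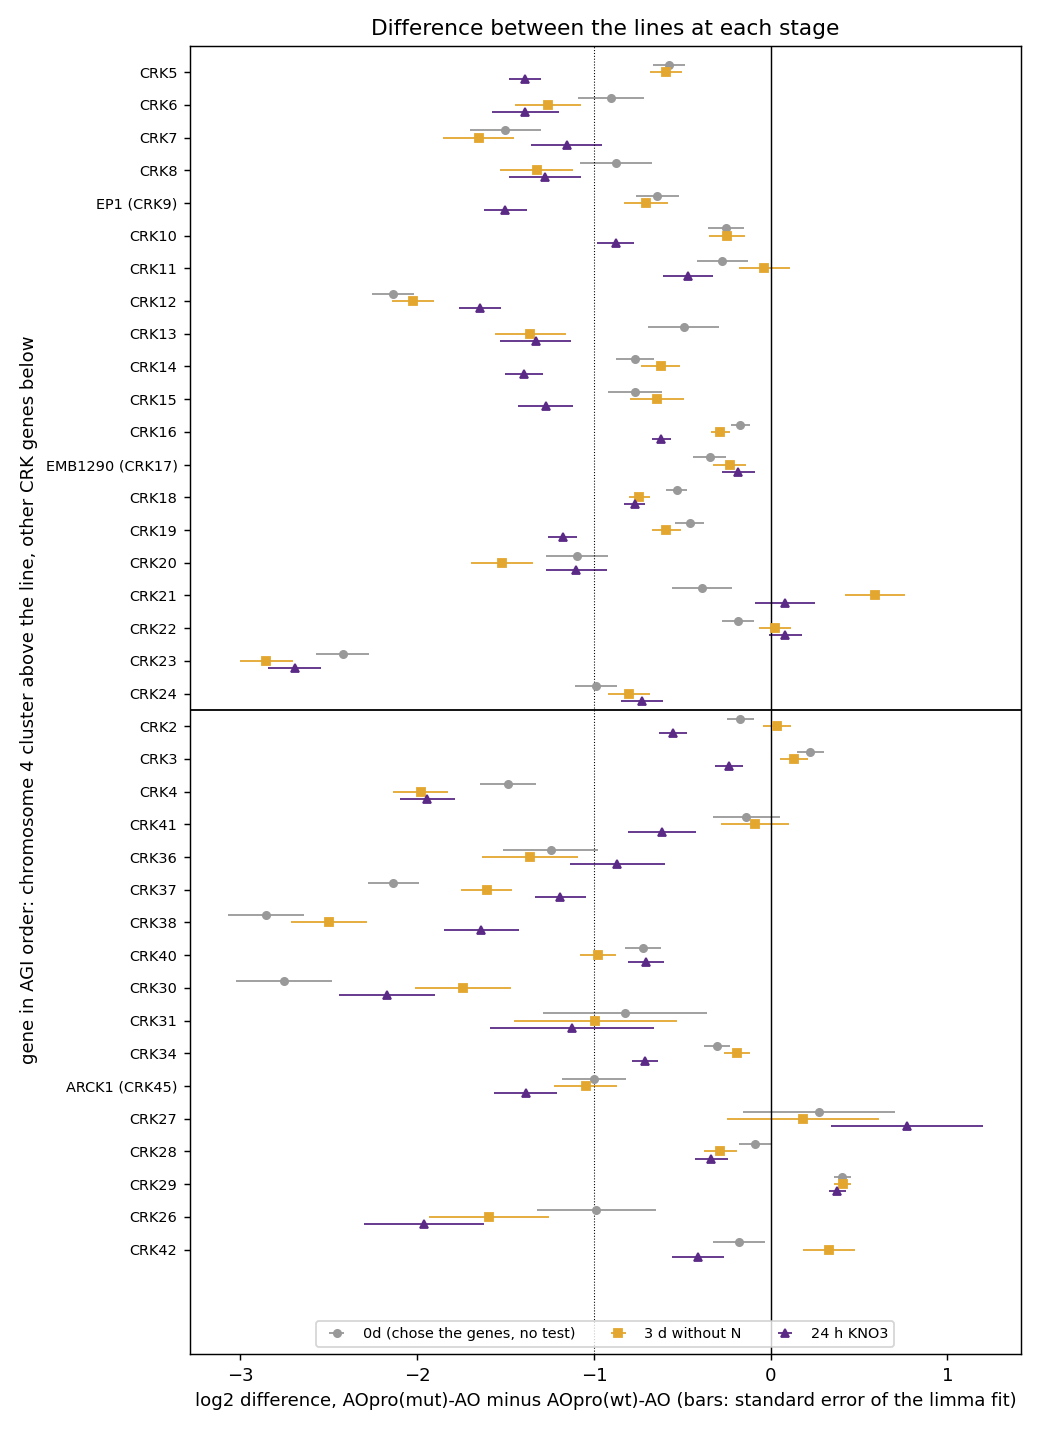
Log2 difference between the lines (AOpro(mut)-AO minus AOpro(wt)-AO, horizontal axis) for each tested CRK gene at 0d (circles), 3d[-N] (squares) and after KNO3 resupply (triangles), with the standard error of the limma fit as bars and a dotted line at -1. Genes are in AGI order, with the 20 cluster genes above the line; *CRK23* lies near -2.4 to -2.9 at all stages while its neighbour *CRK22* lies between -0.18 and 0.08.

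Over all 3 stages, 30 of the 37 tested CRK genes had lower means in AOpro(mut)-AO plants at every stage, 18 in the cluster and 12 elsewhere, and for 22 the arrays of the lines overlapped at no stage. Of all genes tested, 32.7% had lower means at every stage and 13.8% were lower without overlap at every stage. The 0d stage, which chose the set, is part of these counts, so nothing is read from them. At 3d[-N] alone 28 CRK genes were lower without overlap (31.4% of all genes), and after resupply alone 27 were (24.7% of all genes). The exceptions in the cluster lay next to each other. *CRK21* had log2 differences of -0.39 at 0d, 0.59 at 3d[-N] and 0.08 after resupply, and *CRK22* had -0.18, 0.03 and 0.08. They lie between *CRK20* and *CRK23*, both of which were called lower at 3d[-N] and after resupply. *EMB1290* (CRK17), named for an embryo-defective mutant, had log2 differences of -0.35, -0.23 and -0.18 with the brighter of its probes. Its dimmer probe gave larger differences, -0.62 at 3d[-N] (limma adjusted p = 0.000165) and -0.83 after resupply (adjusted p = 1.13e-05), short of the fold threshold. *CRK18* had -0.74 at 3d[-N] with the probe used and -1.04 and -1.004 with its 2 dimmer probes, which passed both thresholds. *CRK11* had -0.27, -0.04 and -0.47. Of the genes outside the cluster, *CRK28*, which associates with BAK1 and can set off cell death, had -0.09, -0.29 and -0.34, while its neighbour *CRK29* was on the other side at 0.41, 0.41 and 0.38. The neighbouring *CRK36*, *CRK37*, *CRK38* and *CRK40* lay lower in AOpro(mut)-AO plants at each stage, with medians over these 4 genes of -1.69, -1.48 and -1.03.

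The medians of the cluster and of the other CRK genes stood in a different order at the different stages. After resupply the cluster had the larger median difference, -1.16 against -0.71 in the others, with 12 of 20 against 6 of 17 tested genes called. At 3d[-N] the median was -0.68 in the cluster and -0.98 in the others, with 7 of 20 against 7 of 17 called. Both counts of the others include *CRK26*, whose calls carry no weight. The medians over all genes tested were 0.00 at 3d[-N] and 0.01 after resupply. The median of the other genes at 3d[-N] was the value of *CRK40*, at the edge of a gap between clearly lower and nearly equal genes. Over the 13 others above background on every array, with 4 called, it was -0.19, and with normexp background correction over the 17 others -0.29. At resupply the same 13 genes had a median of -0.62, with 3 called. The difference between the cluster and the others was not tested.

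On single arrays the median over the cluster genes, each taken relative to its mean at 0d in AOpro(wt)-AO, was 0.44 to 0.63 in AOpro(wt)-AO and -0.27 to 0.00 in AOpro(mut)-AO plants at 3d[-N]. After resupply it was 0.12 to 0.31 against -1.10 to -0.84, so the lines did not overlap at either stage. The arrays lay on 5 slides that each held more than 1 group. Between arrays on the same slide, the median line difference of the cluster was -0.84, -0.47 and -0.70 on the 3 slides with both lines at 3d[-N], and -1.16 and -1.17 on the 2 slides with both lines after resupply. For the other CRK genes the same values were -1.01, -0.68 and -1.01 at 3d[-N], and -0.67 and -0.81 after resupply. Every slide that held both lines gave lower medians in AOpro(mut)-AO plants in both sets.

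**Figure D3:**
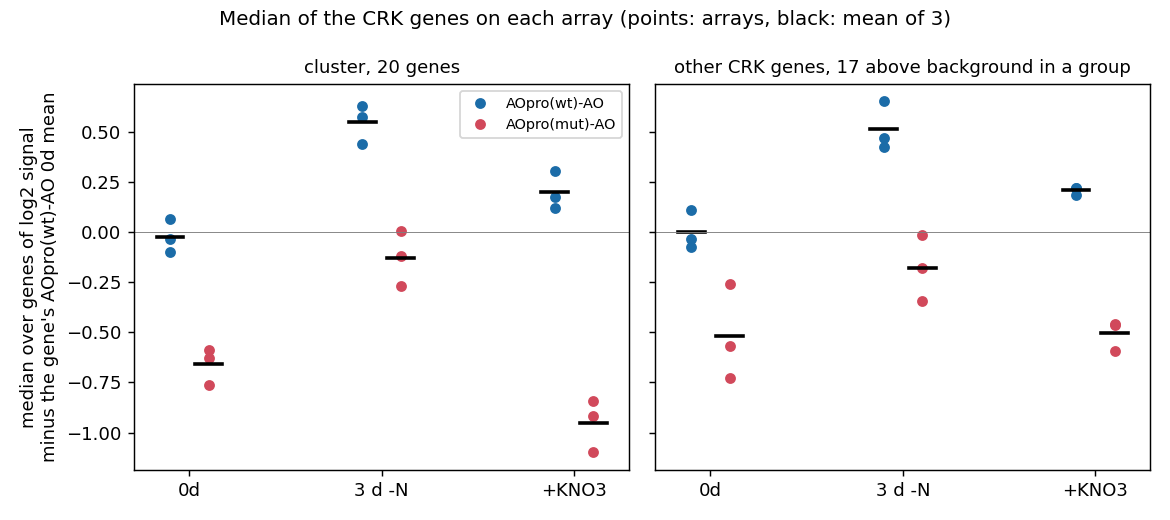
Median over the genes of a set of the log2 signal minus the gene's AOpro(wt)-AO mean at 0d (vertical axis), on each array (points) with the mean of the 3 arrays of a group (black bars), for the 20 cluster genes (left) and the 17 other CRK genes above background in a group (right). In the cluster the resupplied AOpro(mut)-AO arrays, at -1.10 to -0.84, are the lowest of the panel.

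With N starvation, most CRK genes had higher means in both lines. In AOpro(wt)-AO plants 31 of 37 had a higher mean at 3d[-N] than at 0d and 6 passed a log2 difference of 1, against 2.85% of all genes tested, with medians of 0.53 in the cluster and 0.58 in the others. In AOpro(mut)-AO plants 34 had a higher mean and 4 passed 1, against 1.63% of all genes, with medians of 0.56 in the cluster and 0.39 in the others. The genes past 1 in AOpro(wt)-AO were *CRK6*, *CRK7*, *CRK8*, *CRK23*, *CRK36* and *CRK37*, at 1.13 to 1.33. In AOpro(mut)-AO they were *CRK7* at 1.002, *CRK36* at 1.22, *CRK37* at 1.82 and *CRK38*, which was at least 2.50-fold higher. *CRK30* went the other way in AOpro(wt)-AO plants, from -3.75, -3.79 and -3.42 at 0d to -5.29, -4.95 and -4.68 at 3d[-N], a log2 difference of -1.32.

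From 3d[-N] to 24 h of KNO3 resupply, more CRK genes were called lower than higher. In AOpro(wt)-AO plants 6 fell and 1 rose, against 4.22% of all genes called, 2.74% as lower and 1.48% as higher. The 6 that fell were *CRK37*, *CRK20*, *CRK36*, *CRK38*, *CRK7* and *CRK8*. *CRK37* went from -1.76, -1.87 and -1.84 at 3d[-N] to -3.28, -3.71 and -3.69, a fall of 3.33-fold (log2 difference -1.74, SE 0.14, adjusted p = 1.24e-06). *CRK20* went from -3.27, -3.59 and -3.46 to -4.87, -5.24 and -5.16, a fall of 3.14-fold (adjusted p = 8.42e-06). Neither gene had overlapping arrays. *CRK36* went from -0.41, -0.51 and -0.51 to -1.53, -2.85 and -1.74, a fall of 2.96-fold (adjusted p = 0.000350). *CRK38*, *CRK7* and *CRK8* had log2 differences of -1.28, -1.14 and -1.001. *CRK42* (AT5G40380) alone rose, from -1.65, -1.47 and -1.40 to -0.75, -0.16 and -0.17 (log2 difference 1.15, SE 0.15, adjusted p = 4.06e-05). *CRK7* lost the fold threshold without replicate 2 of the resupplied AOpro(wt)-AO arrays (log2 difference -0.95), and *CRK8* did so without replicate 2 (-0.87) or 3 (-0.93) of these arrays or replicate 1 of AOpro(wt)-AO at 3d[-N] (-0.95), and with the slide as a block (-0.91).

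In AOpro(mut)-AO plants 6 CRK genes fell with resupply and none rose, against 1.44% of all genes called, 0.798% as lower and 0.646% as higher. *CRK37* went from -3.68, -3.19 and -3.42 to -4.82, -4.79 and -4.63, a fall of 2.49-fold (adjusted p = 7.91e-05). *CRK20* went from -5.20, -4.93 and -4.74 to -5.79, -6.31 and -6.47, a fall of 2.35-fold (adjusted p = 0.000353). These and *CRK36*, with a log2 difference of -1.07, were called in both lines. The other 3 were *CRK6* at -1.11, *CRK15* at -1.12 and *CRK26*. The *CRK26* call carries no weight, since 1 of its 3 arrays at 3d[-N] and none of the resupplied arrays was well above background, and without it 5 genes fell. Leaving out replicate 2 of AOpro(mut)-AO at 3d[-N] took *CRK6* to -0.94 and *CRK36* to -0.93, under the fold threshold, and *CRK26* to adjusted p = 0.0533. *CRK36* also fell short without replicate 2 of the resupplied AOpro(mut)-AO arrays (-0.92), and *CRK26* without replicate 1 or 3 of them or replicate 3 at 3d[-N] (adjusted p = 0.0673 to 0.0853), or with only the arrays compared in the fit (adjusted p = 0.116). *CRK30* was at least 1.73-fold lower after resupply and was not called. With normexp background correction, *CRK8*, *CRK20* and *CRK38* were not called in AOpro(wt)-AO, and *CRK20*, *CRK26*, *CRK36* and *CRK37* were not called in AOpro(mut)-AO plants.

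The median change with resupply in the cluster was -0.28 in AOpro(wt)-AO and -0.66 in AOpro(mut)-AO plants. In the other CRK genes it was -0.30 and -0.26. On the slides that held both stages of AOpro(mut)-AO, the cluster median was -0.90 and -0.74, and on the 1 slide that held both stages of AOpro(wt)-AO it was -0.24. With normexp background correction the median of the other genes in AOpro(wt)-AO was on the other side of 0, at 0.09. The median over all genes tested was 0.08 with normexp in this comparison, against -0.02 in the main analysis.

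The test of the difference in resupply response, which is the same contrast as the change in the line difference from 3d[-N] to resupply, called 8 CRK genes at an unadjusted p of 0.001 (3.84% of all genes called, 1.89% as more negative in AOpro(mut)-AO). Each of the 8 was more negative in AOpro(mut)-AO plants, 6 in the cluster (*CRK5*, *EP1*, *CRK10*, *CRK14*, *CRK16* and *CRK19*) and 2 elsewhere (*CRK2* and *CRK34*). Their adjusted p-values ran from 0.00425 to 0.0247. Over all tested genes of a set the median interaction was -0.08 in the cluster, where 9 of 20 values were positive, and -0.13 in the others. With the slide as a block, *EP1* (-0.84, adjusted p = 0.047), *CRK10* (-0.66) and *CRK16* (-0.35) lost the call, as they did with only the arrays compared in the fit. In *CRK5* the 3d[-N] arrays read 0.06, -0.03 and -0.02 in AOpro(wt)-AO and -0.77, -0.42 and -0.58 in AOpro(mut)-AO, and the log2 difference with resupply was -0.08 in the first and -0.88 in the second (interaction -0.80, SE 0.13, limma adjusted p = 0.00425). In *CRK14* they read 1.31, 1.15 and 1.32 against 0.46, 0.79 and 0.66, with log2 differences of 0.01 and -0.76 (interaction -0.77, SE 0.16, adjusted p = 0.0126). In *EP1* they read 2.48, 2.06 and 2.33 against 1.38, 1.78 and 1.60, with log2 differences of 0.13 and -0.66 (interaction -0.79, SE 0.17, adjusted p = 0.0190). All 3 genes thus had nearly the same mean before and after resupply in AOpro(wt)-AO and a lower mean after it in AOpro(mut)-AO. *CRK2* (AT1G70520), which is known to control callose deposition in salt stress and to regulate the NADPH oxidase RBOHD, had log2 differences of 0.49 in AOpro(wt)-AO and -0.10 in AOpro(mut)-AO plants (interaction -0.59, SE 0.11, adjusted p = 0.00925).

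Of the 5 cluster genes whose line difference was called only after resupply, 4 were among these 8 and *CRK15* was not. None of the 13 genes called lower at both stages was. The interaction is computed from the same line differences that sort these genes, so this pattern is partly fixed by the sorting. Nothing is read from it. The interaction of *CRK5*, *CRK14*, *CRK19*, *CRK2* and *CRK34* stayed at a p of 0.001 or less in all 12 fits that left out 1 array. *EP1* lost it in 6 of them (interaction -0.79 to -0.68, without replicates 2 or 3 of AOpro(mut)-AO at either stage, replicate 2 of AOpro(wt)-AO at 3d[-N] or replicate 3 resupplied). *CRK10* kept it in 3 fits, those without replicate 1 of AOpro(mut)-AO at 3d[-N], replicate 1 of AOpro(wt)-AO resupplied or replicate 3 of AOpro(mut)-AO resupplied, and lay between -0.66 and -0.57 in the 9 others. *CRK16* kept it in 2 fits, those without replicate 1 of AOpro(mut)-AO at 3d[-N] or replicate 2 of AOpro(wt)-AO resupplied, and lay between -0.34 and -0.29 in the 10 others.

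**Figure D4:**
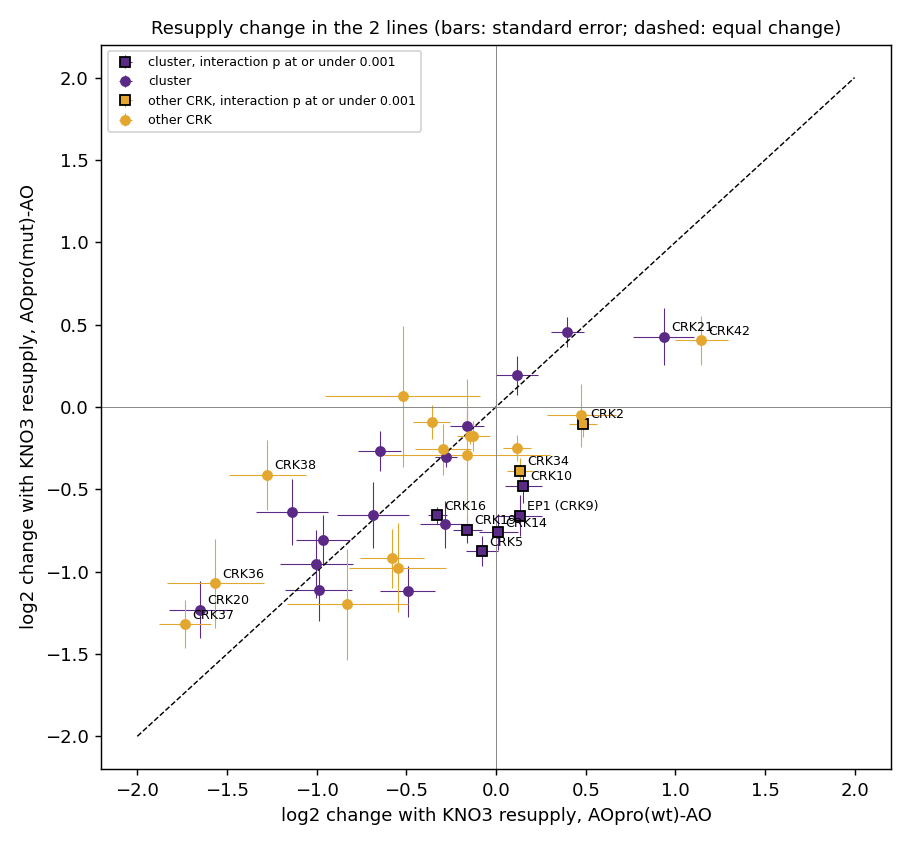
Log2 change with KNO3 resupply in AOpro(wt)-AO (horizontal axis) and in AOpro(mut)-AO plants (vertical axis) for the 37 tested CRK genes, with standard errors of the limma fit as bars and a dashed line of equal change. Outlined squares are the 8 genes with an interaction p of 0.001 or less, all below the dashed line; *CRK20*, *CRK36* and *CRK37* lie low in both lines.

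**Figure D5:**
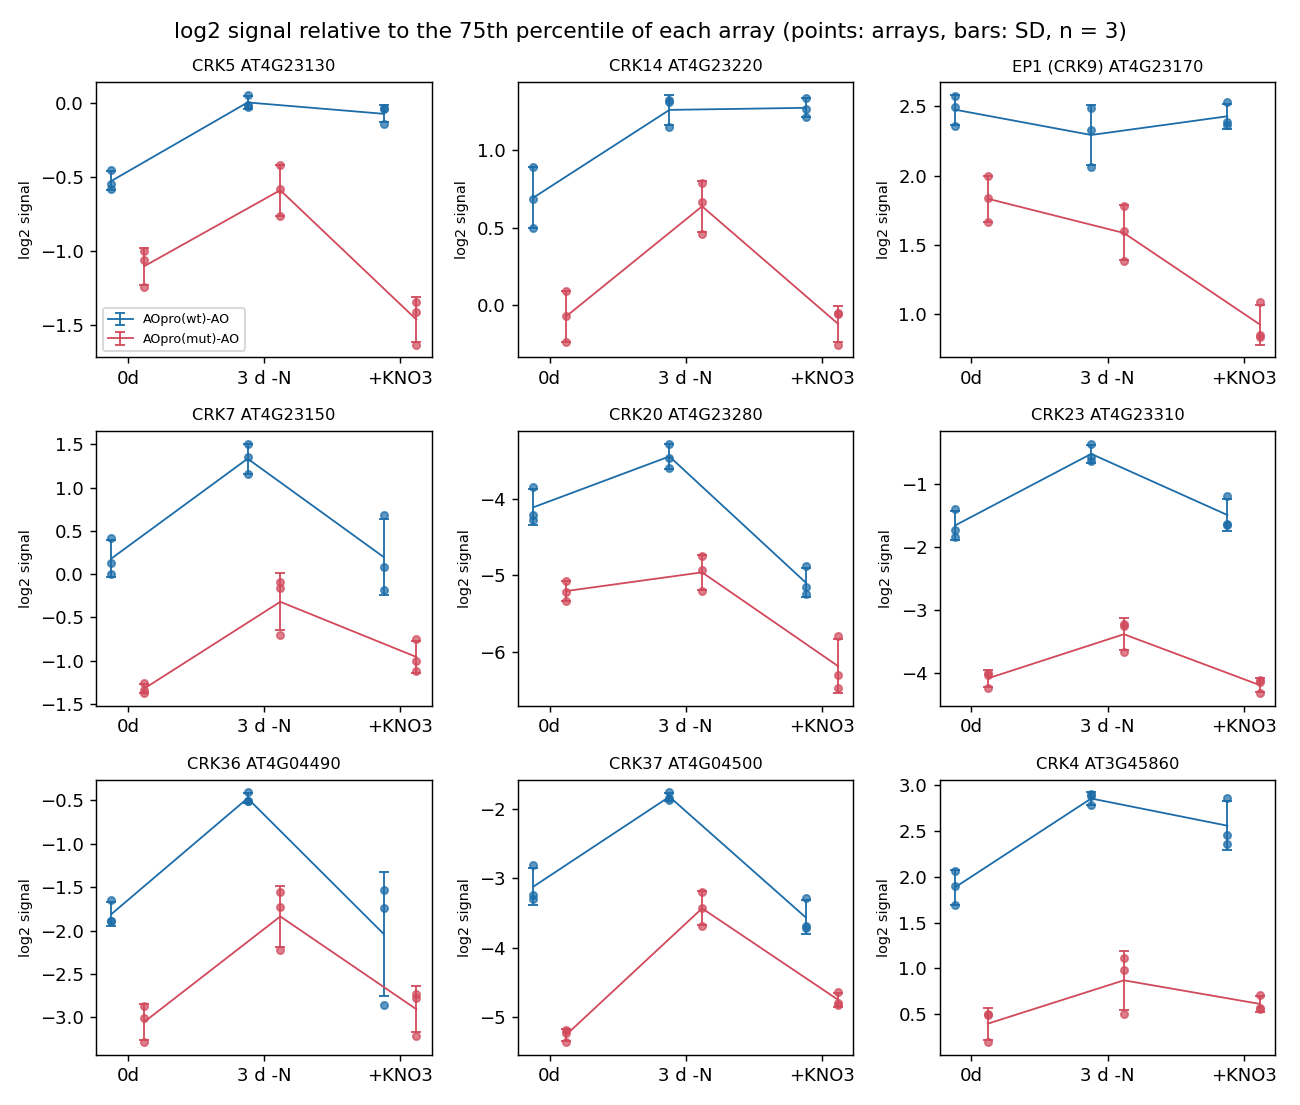
Normalised log2 signal (0 is the 75th percentile of the array) of 9 CRK genes on each array (points), with the mean and SD of 3 replicates (lines and bars), at 0d, after 3 days without N and after 24 h of KNO3. In the top row (*CRK5*, *CRK14*, *EP1*) the lines move apart after resupply, while *CRK20*, *CRK36* and *CRK37* fall in both lines; scales differ between panels.

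Genes around the cluster and genes that work with CRKs were set beside these values. Of the 10 annotated genes on each side of the cluster, 7 were tested. One of them, AT4G23030, was called lower at 3d[-N] (log2 difference -1.10, with 3.25% of all genes called lower), and none was called in the other 4 tested comparisons. *GSH1* (AT4G23100), which encodes the first enzyme of glutathione synthesis, had line differences of -0.20 at 3d[-N] and -0.05 after resupply. The 9 listed proteins with DUF26 domains but no kinase, mostly plasmodesmata-located proteins (PDLPs), had medians of 0.12 at 3d[-N] and 0.32 after resupply. None was called between the lines (7.21% and 6.89% of all genes). With the adjusted p alone 4 passed at each stage, all higher except *HWI1* (PDLP5) at 3d[-N] (-0.69). Of all genes, 26.5% and 25.4% passed it as higher at the 2 stages, and 25.5% as lower at 3d[-N]. *HWI1*, which closes plasmodesmata in salicylic acid responses, was called lower with resupply in AOpro(wt)-AO plants (log2 difference -1.34, with 2.74% of all genes called lower). In AOpro(mut)-AO plants its log2 difference was -0.79 (limma adjusted p = 0.000469), under the fold threshold, and its interaction was not called.

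Of the 14 genes for receptors, co-receptors and the oxidative burst, 1 was called between the lines (7.21% of all genes at 3d[-N] and 6.89% after resupply). This was *SOBIR1*, a receptor-like kinase that serves receptor-like proteins in immunity, with a log2 difference of -1.13 after resupply. The list had medians of -0.40 at 3d[-N] and -0.39 after resupply. With the adjusted p alone, 10 of the 14 genes were lower at 3d[-N] and 8 after resupply (25.5% and 21.9% of all genes), and *RBOHF* was higher at both. *BAK1* and *BIK1*, partners of several CRKs, did not pass, with line differences between -0.10 and 0.08 at both stages. Of the 13 genes of salicylic acid synthesis, signalling and output, 10 were called lower in AOpro(mut)-AO plants at 3d[-N] and 6 after resupply (3.25% and 2.46% of all genes). Their medians were -1.11 and -0.997. The lowest was *PR1*, a salicylic acid marker, at -2.98 and -2.68. With resupply, 6 of these genes fell in AOpro(wt)-AO plants (2.74% of all genes) and 1, *FRK1*, a receptor-like kinase gene induced by flagellin, in AOpro(mut)-AO plants (0.798%). Their median interaction was 0.31, with *PBS3*, which makes a salicylic acid precursor, called as less negative in AOpro(mut)-AO plants at 1.03. The median over the 37 tested CRK genes was -0.13, with 15 of them positive. The lists were chosen with earlier results of these data known, so their counts are a description.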

How the data were processed

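The scanner files hold intensity values on a linear scale, which the authors deposited after background subtraction by Agilent Feature Extraction (12.1.1.1 per the file headers). The members and lists were chosen with earlier results of these data known. The deposited processed intensity was taken as log2, spots marked as outliers were left out, replicate spots were averaged, and the 75th percentile of each array was subtracted. Probes were named through the RefSeq table of assembly TAIR10.1, from which names and gene order, and no coordinates, were taken. Of 36163 probes with a gene, 29416 were tested (21060 genes). The probe with the highest mean signal stood for a gene.

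A model of 6 group means was fitted with limma 3.58.1 in R 4.3.3 (empirical Bayes, Benjamini-Hochberg over all tested probes), with thresholds of adjusted p 0.05 and log2 difference 1, and unadjusted p 0.001 for the interaction. Per-array values are given for the genes with the largest differences in each comparison, a rule set with the lists; *CRK5* was added after its values were seen. Where arrays of a group were all below background, folds are bounds. The number of arrays limits the precision. In simulated data, 200 probes per comparison were changed by a log2 difference of 1.5, and 178 to 192 were recovered. Of the 29224 probes, 35 others were called for the interaction and 2 to 4 in the other comparisons. Smaller differences were not simulated, so recovery at the size of the reported interactions is not known. Alternatives were quantile normalization, normexp (offset 50, on the median raw signal), the deposited series matrix (intensity divided by about the 75th percentile, with a floor of 0.01), other filters and probes, array weights, blocks and each replicate left out. Protein, promoter and probe sequences were not analysed here.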

Additional observations from a re-analysis of the deposited data

Results flagged for a closer look

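The response of 8 CRK genes to KNO3 resupply differed between the lines by the interaction test in limma (unadjusted p of 0.001 or less). The resupply effect in AOpro(mut)-AO minus that in AOpro(wt)-AO plants was -0.80 for *CRK5* (AT4G23130), -0.79 for *EP1* (AT4G23170), -0.77 for *CRK14* (AT4G23220), -0.63 for *CRK10* (AT4G23180), -0.59 for *CRK19* (AT4G23270) and -0.33 for *CRK16* (AT4G23240) in the cluster. Outside the cluster it was -0.59 for *CRK2* (AT1G70520) and -0.52 for *CRK34* (AT4G11530). With normexp background correction, *CRK5*, *EP1* and *CRK14* kept a p of 0.001 or less and the other 5 did not.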

How the results depend on the processing

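With normexp background correction the CRK genes called numbered 9 at 3d[-N], 2 for resupply in AOpro(mut)-AO and 3 for the interaction; of the genes called in the main analysis, 6 of 14, 4 of 6 and 5 of 8 were lost, as were 6 of 18 after resupply and 3 of 7 for resupply in AOpro(wt)-AO. The median of the other CRK genes at 3d[-N] was -0.29 with normexp, with the series matrix and without the filter on dim probes, and -0.19 with only probes above background on all 18 arrays. Their median for resupply in AOpro(wt)-AO was 0.0906 with normexp, -0.16 with the series matrix and without the filter and -0.15 on all 18 arrays, and after resupply between the lines it was -0.62 with the last 3 of these settings. The cluster median of the interaction was -0.36 with normexp and -0.08 in the main analysis. Over all genes tested, normexp moved the median for resupply in AOpro(wt)-AO from -0.02 to 0.08. It moved the all-gene median of the interaction from 0.01 to -0.08. The interaction called 5 genes with only the arrays compared and 5 with the slide as a block, each without *EP1*, *CRK10* and *CRK16*. Without a minimum fold change, 27, 32, 20 and 24 CRK genes were called at 3d[-N], after resupply, and for the resupply response of the wt and mut lines. In the same order, 10941, 9979, 10171 and 5748 of all 21060 genes tested were called. The causes were not tested beyond what these settings change.

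Leaving out each replicate in turn gave 13 to 15 genes at 3d[-N], 16 to 19 after resupply, 5 to 10 and 4 to 8 for the resupply response of the wt and mut lines, and 5 to 10 for the interaction. The cluster medians ranged from -0.75 to -0.57, -1.28 to -1.03, -0.33 to -0.24, -0.77 to -0.63 and -0.23 to 0.01 in the same order, and those of the other genes from -1.05 to -0.91, -0.78 to -0.70, -0.33 to -0.19, -0.40 to -0.21 and -0.23 to -0.03. Same-numbered replicates of the groups compared in the tests did not all deviate together (over all groups, 45 pairs of arrays with correlations of -0.22 to 0.31, 10 of them over 0.1), so they were taken to share only a number. At 0d the lines' same-numbered arrays correlated at 0.12 to 0.22, each best with its own number. With the replicate number as a block, 14, 18, 7, 6 and 7 genes were called, and *CRK10* and *CRK16* lost the interaction call. Quantile normalization lost *CRK8* for resupply in AOpro(wt)-AO and *EP1* for the interaction, and array weights lost *ARCK1* at 3d[-N] and *CRK7* after resupply. No call turned its direction under any setting run, and of 106 counts of called genes under the alternatives 92 stayed within 1.5 times the main count.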

Other observations

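Some dim CRK genes outside the cluster had single arrays apart from their group. *CRK27* read -3.84 on replicate 1 and -5.73 and -6.24 on replicates 2 and 3 of the resupplied AOpro(mut)-AO plants. *CRK31* read -6.31 on replicate 2 and -8.31 and -8.27 on replicates 1 and 3 of AOpro(mut)-AO plants at 0d. *CRK41*, brighter than these, read -0.01 on replicate 1 and 0.77 and 0.95 on replicates 2 and 3 of the resupplied AOpro(wt)-AO plants. None of these 3 genes was called in a tested comparison.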
